A study of Mus musculus with 21 samples.

Results

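The 9 polyamine metabolism genes Odc1, Amd1, Amd2, Srm, Sms, Sat1, Smox, Oaz1 and Azin1 were followed in the gastrocnemius muscle of mice that trained, stopped training or did not train. They were taken by gene symbol from the 40853 genes of the deposited count table. All 9 were counted in every library, and all 9 passed the filter on low counts that left 16129 genes for testing. RNA came from the medial belly of the muscle of female C57BL/6NJ mice, with 7 libraries, each from 1 mouse, in each of 3 groups. Training began at 10 weeks of age. The Active group ran on a treadmill for 6 weeks, in sessions of up to 40 min on 5 days a week. Each session began with a slower warm-up, and the rest was run at about 70% of maximal speed. The Activity Reduction group ran in the same way for 4 weeks and then stayed inactive for 2 weeks. The Inactive group did not train. Mice of all 3 groups, including the Inactive group, ran maximal tests on the treadmill, and tissue was taken after a fast, 48 to 72 h after the last of these tests. The values describe rested muscle and not the hours after a bout.

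Polyamines are small, positively charged molecules that bind nucleic acids and that cells need for growth and protein synthesis. Ornithine decarboxylase makes putrescine, and spermidine and spermine are built from it with aminopropyl groups from decarboxylated S-adenosylmethionine. An acetyltransferase and oxidases turn the higher polyamines back, and antizyme and antizyme inhibitor set how much ornithine decarboxylase a cell keeps. In skeletal muscle the pathway is known for its link to muscle mass, and its transcripts are known to respond to androgens and to disuse. Much of its control acts on translation and protein turnover, which counts of RNA do not measure.

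The libraries held between 38482455 and 59785132 counts, with medians of 53278181 in the Inactive, 46532461 in the Active and 49829192 in the Activity Reduction group. The 8 muscle fibre markers together made up 131417 to 163151 CPM (counts scaled to the total of each library), so that the tissue matched its label. Transcripts of 24 genes of the liver divided the libraries into 8 with more (1 Inactive, 5 Active and 2 Activity Reduction) and 13 with fewer (6, 2 and 5). Alb, which encodes albumin, lay between 365 and 1155 CPM in the former and between 71.1 and 161 CPM in the latter. Results that may move with this division are given again within it. In RNA from whole tissue, fewer cells of a type and less RNA per cell cannot be told apart.

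Amd1 and Amd2 both encode S-adenosylmethionine decarboxylase, the enzyme that supplies the aminopropyl groups, and their reads are hard to separate. Amd1 is a spliced gene on chromosome 10 of GRCm39 (chr10:40162797-40178185, minus strand) with 9 merged exons. Amd2 is a single exon of 3218 bp on the same chromosome (chr10:35584671-35587888, minus strand). Of the 1002 coding bases that the annotated transcripts share, 1001 were identical. The 1 difference was G796C, with the base of Amd1 first and positions counted from the first base of the Amd1 coding sequence. The stretch around it, coding bases 766 to 826, is shown because it holds the only difference within the aligned coding bases. The Amd1 coding sequence, at 1389 bases, is longer than that of Amd2, and the rest of it lies outside this alignment. It lies within 1 coding exon of each gene, at chr10:40166152-40166212 in Amd1 and chr10:35586730-35586790 in Amd2. Both are written 5′ to 3′ on the minus strand, with the differing base in capitals.
Amd1: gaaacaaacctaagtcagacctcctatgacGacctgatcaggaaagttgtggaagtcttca
Amd2: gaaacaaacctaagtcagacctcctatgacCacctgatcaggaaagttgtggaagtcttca
Of all windows of 100 bases in the Amd2 transcript, 72.9% also stand in a transcript of Amd1. Amd2 received between 72 and 222 counts per library, and every one of these 21 counts was an even number, whereas the other 8 genes had even counts in 5 to 14 of the 21 libraries. Over all genes counted in a library, 56.9% to 59.7% of the counts were even. Whether the mates of a read pair were counted separately is not given in the sources used here. If they were, fewer fragments than counts lie behind each value, which bears most on Amd2. Amd2 made up 1.4997% ± 0.301 of the counts of both genes in Inactive mice, 1.46% ± 0.258 in Active mice and 1.49% ± 0.279 in Activity Reduction mice (SD, n = 7). The Amd2 values below are therefore uncertain, and how reads that match both genes were counted is not given in the sources used here.

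The other 7 genes lie apart from each other on GRCm39. Odc1 lies at chr12:17594383-17601507 (plus strand), Srm at chr4:148675940-148681792 (plus), Sms at chrX:156226848-156275317 (minus) and Sat1 at chrX:153996128-153999452 (minus). Smox lies at chr2:131333416-131368431 (plus), Oaz1 at chr10:80662516-80665124 (plus) and Azin1 at chr15:38487539-38519785 (minus). All 9 encode proteins. Processed pseudogenes share sequence with several of them. Windows of 100 bases that also stand in a transcript of another gene made up 53.1% of the Oaz1 transcript, 27.6% of Sms, 19.6% of Odc1, 10.3% of Azin1, 8.04% of Sat1, 0.255% of Smox and 0% of Srm. Long noncoding RNAs on the opposite strand overlap 15.5% of the exon length of Oaz1, 7.89% of Azin1, 3.97% of Odc1 and 3.5% of Smox. Whether reads were counted by strand is not given in the sources used here, so these counts may hold reads of the overlapping genes.

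Expressed as CPM per kb of merged exons, so that genes of different length can be compared, the transcripts spanned a wide range of levels. Merged exons can be longer than a single annotated transcript, by unequal amounts. They held 8972 bp against 3635 bp for Smox, 6259 against 3732 for Sms, 4349 against 1358 for Srm and 3218 in both for Amd2. The levels and their order hold for this choice of length. Oaz1, which encodes the antizyme that directs ornithine decarboxylase to degradation, stood highest at 130 ± 10.7 (mean ± SD over 21 libraries). Amd1 followed at 32.8 ± 3.89, and Sms, the spermine synthase, and Smox, the spermine oxidase, lay next to each other at 18.5 ± 1.501 and 16.1 ± 3.16. Odc1, which encodes ornithine decarboxylase itself, had 10.4 ± 1.24. The lower end was made up of Sat1, the spermidine/spermine acetyltransferase, at 5.60 ± 0.605, Azin1, the antizyme inhibitor, at 3.90 ± 0.579, Srm, the spermidine synthase, at 1.64 ± 0.276, and Amd2 at 0.823 ± 0.161. Each gene exceeded the next in this order in 20 or 21 of the 21 libraries, apart from Sms, which exceeded Smox in 15 of 21, so that the order of those 2 did not hold beyond their spread.

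**Figure D1:**
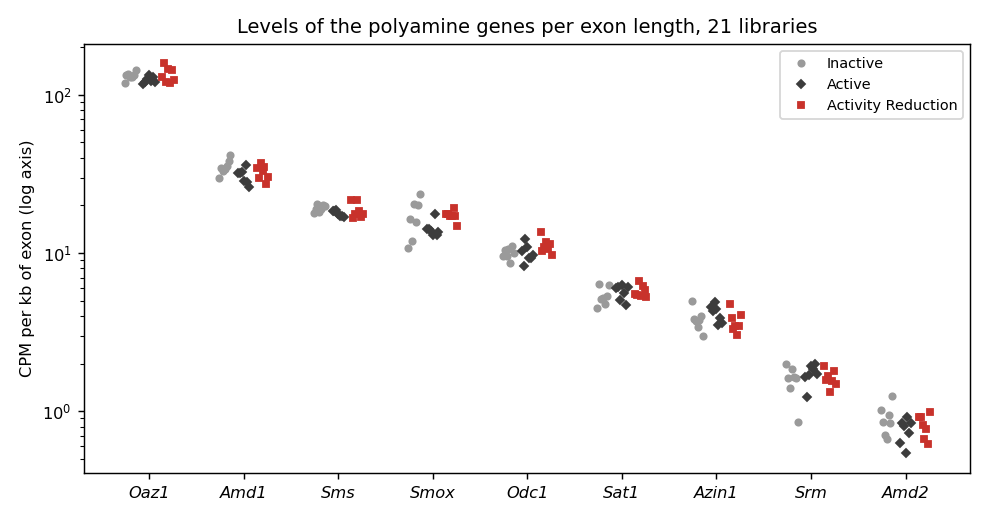
Level of each polyamine gene in CPM per kb of exon (log axis) in the 21 libraries, with symbols by group. Oaz1 stood highest (mean 130) and Amd2 lowest (mean 0.823), and Sms and Smox overlapped.

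Between the groups, no polyamine gene reached an adjusted p-value under 0.05 in edgeR in any of the 3 comparisons, and the differences were small. Over all genes, 0%, 0.0124% and 0% were called in the Active against the Inactive, the Activity Reduction against the Inactive and the Activity Reduction against the Active group. A call needed an adjusted p-value under 0.05 and a log2 fold change over 0.25 in either direction. The largest of the 9 genes' differences was that of Smox, whose normalized count averaged 25.2% higher in the Activity Reduction group than in the Active group. Odc1 averaged 15.2% higher in Activity Reduction than in Inactive mice and 14.9% higher than in Active mice. Amd1 was lower in Active than in Inactive mice (8120 against 9348, a difference of -13.1%). Normalized counts are counts divided by DESeq2's size factors, and log2 fold changes come from edgeR's quasi-likelihood test on all 21 libraries, with Benjamini-Hochberg adjustment over all 16129 genes.

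**Figure D2:**
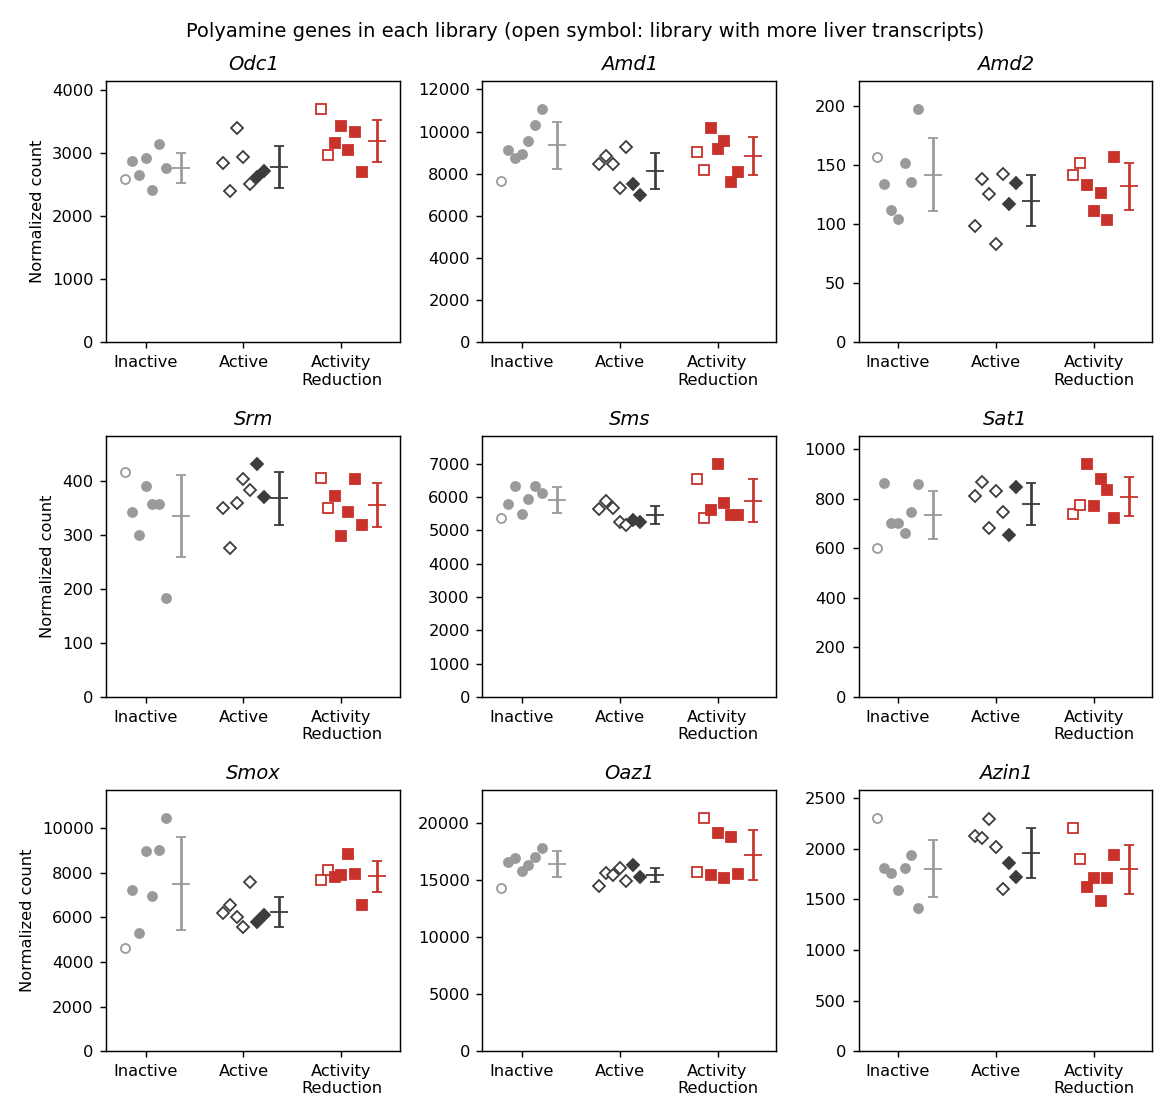
Normalized count of each polyamine gene in every library, by group, with the mean and SD of each group (bars), and open symbols for the 8 libraries with more liver transcripts. In Smox, 6 of the 7 Activity Reduction libraries lie above every Active library, while the Inactive libraries span both.

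In the Active group compared with the Inactive group, which addresses the effect of training itself, 1 of the 9 genes had an unadjusted p-value under 0.05, Amd1, with the lower value in the Active group. Of all genes tested, 10.9% had such a p-value and 4.69% had it with a lower value in the Active group. Log2 fold changes of the 9 genes ran from -0.26 for Smox to 0.14 for Srm, 5 of them below 0 (48.4% of all genes), with a median of -0.08, against a median of 0.01 over all genes. Their adjusted p-values lay between 0.383 and 0.976 (quasi-likelihood test of edgeR, Benjamini-Hochberg adjusted).

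In the Activity Reduction group compared with the Inactive group, which asks whether muscle that had trained and stopped differed from muscle that had not trained, 1 of the 9 had an unadjusted p-value under 0.05, Odc1, with the higher value in the Activity Reduction group. The share over all genes was 7.73%, and 4.19% with a higher value. Here 3 of the 9 log2 fold changes lay below 0 (47.8% of all genes), and they ran from -0.10 for Amd2 to 0.21 for Odc1, with a median of 0.06, against 0.01 over all genes. Adjusted p-values ran from 0.484 to 1.00 (quasi-likelihood test of edgeR, Benjamini-Hochberg adjusted).

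In the Activity Reduction group compared with the Active group, which addresses the step from training to rest, 3 of the 9 had an unadjusted p-value under 0.05, Odc1, Smox and Oaz1, all with the higher value in the Activity Reduction group. The share over all genes was 13.3%, and 6.89% with a higher value. Of the log2 fold changes, 2 lay below 0 (50.2% of all genes), and they ran from -0.13 for Azin1 to 0.32 for Smox, with a median of 0.12, against -0.00 over all genes. Adjusted p-values ran from 0.24998 to 0.904 (quasi-likelihood test of edgeR, Benjamini-Hochberg adjusted). Each pair of these comparisons shares the libraries of 1 group, so the values of one are not independent of those of the next.

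**Figure D3:**
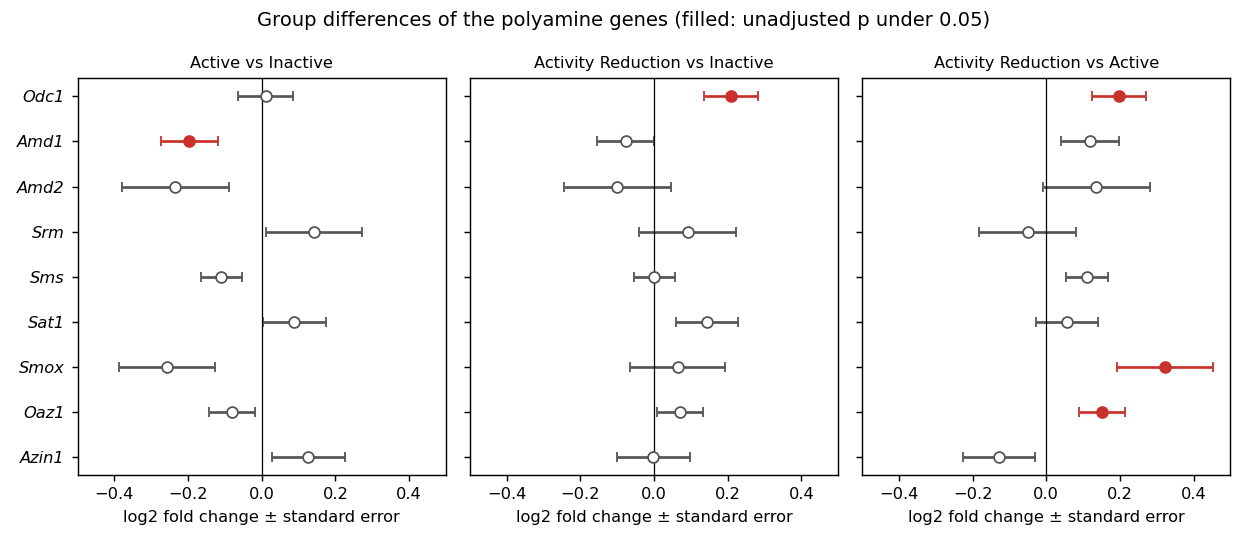
Log2 fold change ± standard error of each polyamine gene in the 3 comparisons (edgeR, 21 libraries), with filled symbols where the unadjusted p-value was under 0.05. Filled symbols mark Amd1 in the first panel, Odc1 in the second, and Odc1, Smox and Oaz1 in the third, where the highest value is 0.32 for Smox.

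Markers of several cell types had unadjusted p-values under 0.05 in edgeR between the same groups, and none had an adjusted one. The summed level of 8 macrophage markers lay between 38.9 and 64.4 CPM in the Active, 32.3 and 66.3 CPM in the Inactive and 20.8 and 63.0 CPM in the Activity Reduction group. Of these 8, 3 were higher in the Active than in the Inactive group and 3 were lower in the Activity Reduction than in the Active group at such a p-value, where the shares of all genes, in either direction, were 10.9% and 13.3%. The summed level of 5 endothelial markers lay between 196 and 262 CPM in the Active, 179 and 225 CPM in the Inactive and 169 and 206 CPM in the Activity Reduction group, with 4 of 5 higher in the first comparison and 3 of 5 lower in the last. In the Activity Reduction against the Inactive group, where the share of all genes was 7.73%, the markers at such a p-value were those of muscle fibres and red blood cells. Of 8 fibre markers, Mylpf (log2 fold change 0.40, at only 1.77 to 3.59 CPM) and Acta1 (0.13) were higher and Myh7, the myosin of slow fibres, was lower (-0.74), with unadjusted p-values of 0.00711, 0.00977 and 0.0138 in edgeR. In the Active against the Inactive group, where the share of all genes was 10.9%, 1 of the 8 fibre markers, Myh4, was higher (log2 fold change 0.19, unadjusted p = 0.0146 in edgeR). The summed level of the fibre markers lay between 131417 and 158342 CPM in the Activity Reduction, 133179 and 144775 CPM in the Inactive and 143467 and 163151 CPM in the Active group. Of 5 red blood cell markers, Alas2 (0.46, unadjusted p = 0.00977) and Hba-a1 (0.32, unadjusted p = 0.0461), which has the near-identical copy Hba-a2, were higher in the Activity Reduction than in the Inactive group in edgeR. Alas2 was also higher in the Active than in the Inactive group (0.50, unadjusted p = 0.00555 in edgeR). Their summed level lay between 52.6 and 99.9 CPM in the Activity Reduction, 41.7 and 89.8 CPM in the Inactive and 56.8 and 87.3 CPM in the Active group. No marker of these 4 lists was at 0 in any library, and their part in the differences of the polyamine genes was not tested.

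Odc1 encodes the enzyme that commits ornithine to the pathway. Its normalized count ran from 2424 through a median of 2767 to 3149 in Inactive, from 2394 through 2720 to 3398 in Active and from 2701 through 3155 to 3701 in Activity Reduction mice. The Activity Reduction libraries were the high ones, with 4 of 7 above every Inactive library and 2 of 7 above every Active library, and the groups overlapped. Against the Inactive group, the means were 3192 ± 328 and 2771 ± 238 (SD, n = 7, exact two-sided permutation test, p = 0.0186, where 7.24% of all genes had a p-value under 0.05). The log2 fold change was 0.21 (standard error 0.0736), with an adjusted p-value of 0.484 (quasi-likelihood test of edgeR, Benjamini-Hochberg adjusted, unadjusted p = 0.00958). Against the Active group, with 2778 ± 331, it was 0.20 (standard error 0.0737, edgeR adjusted p = 0.24998, unadjusted p = 0.0133, exact permutation p = 0.0396). The Active and Inactive groups themselves lay close together (log2 fold change 0.01, standard error 0.0737). The F test of the 3 groups together gave Odc1 the smallest p-value of the 9 genes, 0.0142 before and 0.285 after adjustment in edgeR, where 12.6% of all genes had an unadjusted p-value under 0.05.

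The difference in Odc1 was of similar size within the 13 libraries with fewer liver transcripts. There Odc1 had 2800.3 ± 247 in 6 Inactive, 2673 ± 67.0 in 2 Active and 3134 ± 282 in 5 Activity Reduction libraries. The log2 fold changes of the Activity Reduction group were 0.16 against the Inactive and 0.22 against the Active group, with unadjusted p-values of 0.0293 and 0.0301 in edgeR. In the 8 with more, Odc1 had 2595 in the 1 Inactive, 2820 ± 394 in 5 Active and 3336 ± 517 in 2 Activity Reduction libraries. When counts were scaled to the library total in place of size factors, the exact permutation p-value was 0.0472 in the comparison with the Inactive and 0.120 in that with the Active group, so the latter did not hold on that scale.

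The decarboxylase Amd1 showed its lower values in the Active group. Amd1 ran from 7642 through a median of 9146 to 11067 in Inactive, from 7010.2 through 8454 to 9251 in Active and from 7629 through 9016 to 10174 in Activity Reduction mice. Of the Active libraries, 3 of 7 lay below every Inactive library and all 7 lay below the Inactive mean, and the groups overlapped. Means were 8120 ± 845 in the Active group and 9348 ± 1109 in the Inactive group (SD, n = 7, exact two-sided permutation test, p = 0.0373). The log2 fold change of Amd1 was -0.20 (standard error 0.0783), with an adjusted p-value of 0.383 (quasi-likelihood test of edgeR, Benjamini-Hochberg adjusted, unadjusted p = 0.0200). In those libraries that held fewer liver transcripts it was -0.40 (unadjusted p = 0.00164 in edgeR), from 2 Active libraries against 6 Inactive ones, with 7264 ± 359 and 9632 ± 893. Among all genes in those libraries, the smallest adjusted p-value of that comparison was 0.237 in edgeR. In those with more, the order of Amd1 was turned, with 8462 ± 725 in 5 Active libraries and 7642 in the 1 Inactive library. Both the size and the direction of the difference in Amd1 thus changed with which libraries were compared. With the division as a covariate it was -0.19 (unadjusted p = 0.0486 in edgeR). With 8833 ± 906, the Activity Reduction group lay between the other 2 groups. Neither difference passed in the model of all libraries (log2 fold change -0.08 against the Inactive and 0.12 against the Active group, unadjusted p = 0.335 and unadjusted p = 0.142 in edgeR). Where liver transcripts were fewer, Amd1 had 8930 ± 1049 in 5 Activity Reduction libraries, which all lay above the 2 Active ones. Where they were more, it had 8592 ± 600 in 2 Activity Reduction libraries, close to the Active mean there.

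The copy Amd2 had 142 ± 30.99 in the Inactive, 120 ± 21.9 in the Active and 132 ± 20.0 in the Activity Reduction group, which is the order that Amd1 had. Its log2 fold changes were -0.24 in the first comparison, -0.10 in the second and 0.14 in the third, with standard errors of 0.145, 0.144 and 0.146, and none passed. Where liver transcripts were fewer, Amd2 had 139 ± 33.2 in 6 Inactive and 126 ± 12.3 in 2 Active libraries. The 5 Activity Reduction libraries had 126 ± 20.8 there. In the others it had 157 in 1 Inactive, 118 ± 25.6 in 5 Active and 147 ± 6.99 in 2 Activity Reduction libraries. Summing Amd1 and Amd2 to 1 row gave -0.20 for the Active against the Inactive group, as for Amd1 alone. Amd2 was so small a part of that row that the sum had to stay close to Amd1, so it does not test how their reads were divided.

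The synthases Srm and Sms add the aminopropyl groups that make spermidine and spermine. Sms ran from 5372 through a median of 5935 to 6349 in Inactive, from 5175 through 5325 to 5870.04 in Active and from 5370.5 through 5610 to 7011 in Activity Reduction mice. All 7 Active libraries lay below the Inactive mean of Sms, and 4 of 7 lay below every Inactive library. The means were 5456 ± 271 in the Active and 5916 ± 385 in the Inactive group (SD, n = 7, exact two-sided permutation test, p = 0.0291), while edgeR gave a log2 fold change of -0.11 (standard error 0.0560) with an unadjusted p-value of 0.0618 and an adjusted p-value of 0.479. Of all genes, 11.6% had an exact permutation p-value under 0.05 in that comparison. Within the libraries with fewer liver transcripts, Sms had 5283 ± 60.5 in 2 Active and 6007 ± 330 in 6 Inactive libraries. In those with more, the order of Sms was turned, with 5525 ± 297 in 5 Active libraries and 5372 in the 1 Inactive library. The direction of this difference thus changed with which libraries were compared. Sms in the Activity Reduction group, 5899 ± 635, lay close to the Inactive mean (log2 fold change 0.00, standard error 0.0559). Replicates 1 and 4 of the Activity Reduction group, with 6557 and 7011, were higher than every other library, and the rest of that group lay between 5370.5 and 5818.

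Srm had 335 ± 76.5 in the Inactive, 368 ± 49.5 in the Active and 356 ± 40.8 in the Activity Reduction group. The Inactive group held both the lowest library, with 183, and one of the highest, with 417, so that the Srm values of the other groups fell almost wholly within its range. The log2 fold changes of Srm were 0.14, 0.09 and -0.05 in the 3 comparisons (standard errors 0.131, 0.131 and 0.131), with unadjusted p-values of 0.293, 0.493 and 0.707 in edgeR.

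Of the genes of back-conversion, Smox encodes spermine oxidase, which turns spermine to spermidine. Smox ran from 4641 through a median of 7236 to 10440.2 in Inactive, from 5548 through 6087 to 7569 in Active and from 6547 through 7893 to 8815 in Activity Reduction mice. The Inactive libraries were far apart from each other, with a coefficient of variation of 27.97%, against 10.6% in the Active and 8.63% in the Activity Reduction group. Between the latter 2 groups, 6 of 7 Activity Reduction libraries lay above every Active library and all 7 lay above the Active mean, and the groups overlapped only through replicate 7 of the Activity Reduction group and replicates 2 and 5 of the Active group. Libraries that did not overlap at all between these groups were found for 0.291% of the genes tested, against 0.254% for the Active and Inactive and 0.118% for the Activity Reduction and Inactive groups, and for 0 of the 9 genes here in any comparison.

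The mean of Smox was 7823 ± 675 in the Activity Reduction group and 6248 ± 662 in the Active group (SD, n = 7). The exact two-sided permutation test gave p = 0.00175, where the smallest value possible is 0.000583 and 11.6% of all genes had a p-value under 0.05, and p = 0.214 after adjustment over all genes. The log2 fold change was 0.32 (standard error 0.130), with an adjusted p-value of 0.294 (quasi-likelihood test of edgeR, Benjamini-Hochberg adjusted, unadjusted p = 0.0215). In this model the 3 groups share 1 estimate of the spread. With edgeR on only these 2 groups the log2 fold change was again 0.32, the standard error was 0.0677 and the adjusted p-value was 0.150. DESeq2 on only these 2 groups gave an adjusted p-value of 0.00279 with a standard error of 0.0702, which was the only call of a polyamine gene in any of the fits run, and 0.949% of the genes that DESeq2 gave an adjusted p-value there were called with it. In the comparisons of the Active and of the Activity Reduction with the Inactive group, DESeq2 on the 2 groups compared called 0.539% and 0.298% of genes, and on all 3 groups it called 0.442%, 0.254% and 0.864%, with 0 of the 9 genes among them.

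Within the 13 libraries with fewer liver transcripts, Smox had 7802 ± 811 in 5 Activity Reduction and 5935 ± 214 in 2 Active libraries (log2 fold change 0.39, unadjusted p = 0.0510 in edgeR). In the 8 with more, it had 7877 ± 305.6 in 2 and 6373 ± 760.2 in 5. The higher values of the Activity Reduction group were thus present on both sides of the division. With the division as a covariate the log2 fold change was 0.27 in the model of 3 groups (unadjusted p = 0.0602) and 0.34 in the model of these 2 groups (unadjusted p = 0.000253, adjusted p = 0.149 in edgeR). The latter model was chosen after seeing the data. The smallest adjusted p-value of any gene in it was 0.113 in edgeR. Against the Inactive group, with 7508 ± 2099.7, neither other group had an unadjusted p-value under 0.05 in the model of all libraries. Smox had a log2 fold change of -0.26 in the Active group (standard error 0.130, unadjusted p = 0.0597 in edgeR) and 0.06 in the Activity Reduction group (standard error 0.130, unadjusted p = 0.628). In the libraries that held fewer liver transcripts the difference of the Active from the Inactive group was -0.42 (unadjusted p = 0.0320, adjusted p = 0.811 in edgeR), from 5935 ± 214 in 2 Active and 7986 ± 1836 in 6 Inactive libraries, and without a filter on low counts it was -0.26 (unadjusted p = 0.0414 in edgeR). In the libraries with more it had the other sign, with 6373 ± 760.2 in 5 Active libraries and 4641 in the 1 Inactive library. The lowest Inactive library was replicate 1, the only Inactive library with more liver transcripts, and without it and the other 7 such libraries the difference of the Activity Reduction from the Inactive group was -0.04.

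**Figure D4:**
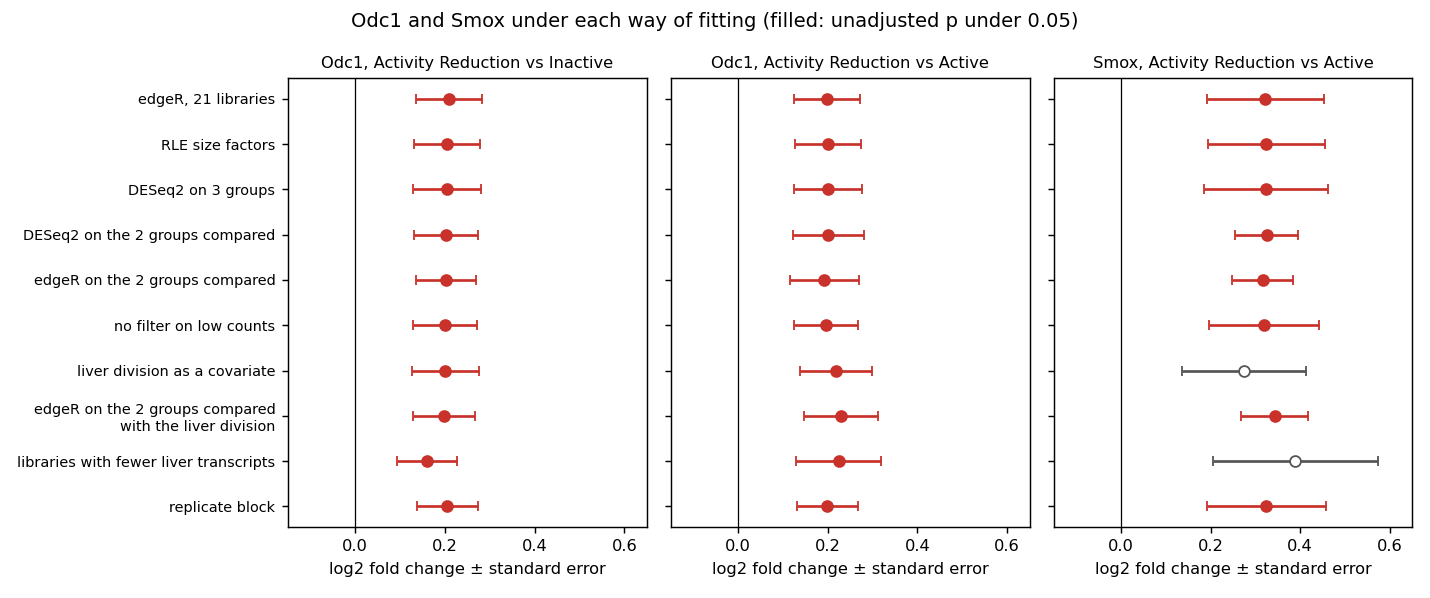
Log2 fold change ± standard error of Odc1 in 2 comparisons and of Smox in 1 comparison, under each way of fitting, with filled symbols where the unadjusted p-value was under 0.05. Every Odc1 value is filled, and the Smox value runs from 0.27 with the liver division as a covariate to 0.39 in the libraries with fewer liver transcripts, both of which are open.

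Sat1 encodes the acetyltransferase that starts the back-conversion and the export of polyamines. It ran from 599 through 703 to 864 in Inactive, from 651 through 812 to 867 in Active and from 720 through 773 to 941 in Activity Reduction mice, with wide overlap. All 7 Activity Reduction libraries lay above the median of the Inactive group. Sat1 had a log2 fold change of 0.14 (standard error 0.0848) against the Inactive group (unadjusted p = 0.102 in edgeR), 0.06 (standard error 0.0849) against the Active group, and 0.09 (standard error 0.0850) for the Active against the Inactive group. Where liver transcripts were fewer, Sat1 had 756 ± 85.6 in 6 Inactive and 748 ± 138 in 2 Active libraries. The 5 Activity Reduction libraries had 829 ± 86.9 there. In the others it had 599 in 1 Inactive, 787 ± 73.5 in 5 Active and 755 ± 25.9 in 2 Activity Reduction libraries. The Active mean of Sat1 was thus lowest where liver transcripts were fewer and highest where they were more.

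The regulators of ornithine decarboxylase were Oaz1 and Azin1, which act against each other at the level of protein. Oaz1 ran from 14335 through a median of 16640 to 17876 in Inactive, from 14496 through 15508 to 16370 in Active and from 15242 through 15767 to 20481 in Activity Reduction mice. The Activity Reduction group fell into 3 high libraries, replicates 2, 4 and 6, with 20481, 19140 and 18821, which lay above every library of the other groups, and 4 libraries that ran only to 15767. The mean of Oaz1 was 17205 ± 2194 in the Activity Reduction group and 15471 ± 644 in the Active group (SD, n = 7, exact two-sided permutation test, p = 0.0921). The log2 fold change was 0.15 (standard error 0.0630), with an adjusted p-value of 0.311 (quasi-likelihood test of edgeR, Benjamini-Hochberg adjusted, unadjusted p = 0.0253). In those libraries that held fewer liver transcripts it was 0.08 (unadjusted p = 0.345 in edgeR). Oaz1 had 16837 ± 1962 in 5 Activity Reduction and 15817 ± 782 in 2 Active libraries there. In those with more, it had 18124 ± 3333 in 2 Activity Reduction and 15333 ± 621 in 5 Active libraries. The direction was thus the same on both sides of the division, with the smaller difference where liver transcripts were fewer. All 7 Active libraries lay below the mean of the Inactive group, 16445 ± 1127 (log2 fold change -0.08, standard error 0.0630, unadjusted p = 0.210 in edgeR).

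Azin1 ran from 1409 through 1809 to 2301 in Inactive, from 1602 through 2017 to 2294 in Active and from 1483 through 1714 to 2204 in Activity Reduction mice. It was the one gene of the 9 besides Srm that was lower in the Activity Reduction than in the Active group, and the groups overlapped widely. The log2 fold change was -0.13 (standard error 0.0984, unadjusted p = 0.205 in edgeR) against the Active group and 0.13 (standard error 0.0983, unadjusted p = 0.212) for the Active against the Inactive group. Its level went with the liver division. In the libraries with more liver transcripts Azin1 had 2301 in the 1 Inactive library, 2028 ± 258 in 5 Active and 2049 ± 218 in 2 Activity Reduction libraries, and in those with fewer it had 1719 ± 188, 1787 ± 97.0 and 1692 ± 165. With the division as a covariate the log2 fold change for the Active against the Inactive group was -0.03.

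How the genes varied together was examined within the division, after group means were removed, over all 36 pairs. In the 13 libraries with fewer liver transcripts Pearson's r ran from -0.67 to 0.56, and in 7 with more (the lone Inactive library was dropped) from -0.75 to 0.81. After adjustment over the 36 pairs, 0 had a permutation p-value under 0.05 on either side, with 4 and 2 pairs before adjustment. The permutations shuffled values across groups after the group means had been removed, so these p-values may be too small. Exact here means only that every order of the 7 values was used. Smox and Azin1 went in opposite directions on both sides, with r = -0.59 (permutation p = 0.0361, rho = -0.59, p = 0.0368) in the 13 libraries and -0.75 (exact permutation p = 0.0683, rho = -0.57, p = 0.200) in the 7. Without the 2 libraries farthest from the median of Smox, r was -0.55 and -0.77. The permutation p-values of r were 0.398 and 0.410 after adjustment over the 36 pairs. Smox and Amd1 had r = 0.56 (permutation p = 0.0475, rho = 0.49, p = 0.0932) in the 13 libraries and 0.76 (exact permutation p = 0.0565, rho = 0.57, p = 0.200) in the 7. Without the 2 libraries farthest from the median of Amd1, r was 0.55 in the former and -0.17 in the latter, so that in the 7 the relation rested on those 2 libraries. The other pairs under 0.05 before adjustment were Amd2 with Srm (r = -0.67) and Sms with Oaz1 (0.55) in the 13, and Amd2 with Amd1 (0.81) and with Smox (0.81) in the 7. Without the 2 libraries farthest from the median of the gene, r of Amd2 was -0.09 with Srm and 0.72 with Smox. Likewise, r of Sms with Oaz1 was 0.15 and r of Amd1 with Amd2 was 0.19. Apart from Amd2 with Smox, these relations thus rested largely on 2 libraries. Amd1 and Amd2 also share sequence, and the part of shared reads in their r was not tested.

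Beyond these 9 genes, the transcripts whose log2 levels followed a member most closely over the 21 libraries are given as a description, with libraries that share the liver division and the groups. Oaz1 was followed by Rtn2 (Pearson's r = 0.949), Jsrp1 (0.923) and Tomm6 (0.886). Smox was followed by Pde4d (0.812), Gpt2 (0.810) and Mylk2 (0.764), Odc1 by Zdhhc24 (0.822), Uri1 (0.770) and Tbx1 (0.761), and Amd1 by Vps41 (0.808), Phka1 (0.807) and Cltc (0.795). For Sms they were Kif5b (0.811), Emc3 (0.788) and Fxr1 (0.780), for Srm Rab2a (0.847), Fdx1 (0.835) and Pdcd2 (0.808), and for Azin1 Sema6d (0.844), Gnpnat1 (0.816) and Gstm3 (0.786). Sat1 and Amd2 had the least close followers, Slc11a1 (0.709), Cdyl (0.695) and Dnah17 (0.672) for Sat1, and F630048H11Rik (0.766), Wnk2 (0.702) and Pcyox1l (0.694) for Amd2.

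The genes around the pathway were counted in 6 lists of 34 genes, of which 31 were tested. In the Active against the Inactive group 0 were higher and 1 was lower at an unadjusted p-value under 0.05, in the Activity Reduction against the Inactive group 2 were higher and 2 lower, and in the Activity Reduction against the Active group 3 were higher and 0 lower. The shares of all genes, in either direction, were 10.9%, 7.73% and 13.3%. The first and the last count thus lay below the share of all genes, and the middle count lay above it. None had an adjusted p-value under 0.05 in edgeR, and the lowest was 0.202. The medians of the 31 log2 fold changes were -0.02, 0.04 and 0.01.

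Genes of hypusine, the spermidine-derived residue that the translation factor eIF5A needs, were 4 of the 31, and Dohh, Eif5a and Dhps were among those counted. Dohh, the hydroxylase that completes hypusine, had 494 ± 44.3 in the Inactive, 481 ± 46.2 in the Active and 566 ± 69.9 in the Activity Reduction group (SD, n = 7), and 5 of 7 Activity Reduction libraries lay above every Active library. The Activity Reduction group had a log2 fold change of Dohh of 0.20 (standard error 0.0793, unadjusted p = 0.0190 in edgeR) against the Inactive and 0.23 (standard error 0.0797, unadjusted p = 0.00737, adjusted p = 0.202) against the Active group. Eif5a, the factor itself, had 13141 ± 391, 13045 ± 818 and 14120 ± 1388, in the order Inactive, Active and Activity Reduction. Its log2 fold change in the Activity Reduction group was 0.11 in both comparisons (standard errors 0.0517 and 0.0517, unadjusted p = 0.0478 and unadjusted p = 0.0409 in edgeR). Dhps, the enzyme that moves the spermidine residue to eIF5A, had its lowest mean in the Active group, with 647 ± 59.1 against 722 ± 57.6 in the Inactive group (log2 fold change -0.15, unadjusted p = 0.0323 in edgeR). Dhps was -0.09 in the Activity Reduction against the Inactive group (unadjusted p = 0.177). Eif5a2, the other eIF5A gene, had values of the opposite sign to Eif5a in the Activity Reduction group, -0.08 against the Inactive and -0.25 against the Active group (unadjusted p = 0.725 and unadjusted p = 0.282 in edgeR).

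In the methionine cycle, Mat2a, which makes S-adenosylmethionine outside the liver, was higher in the Activity Reduction than in the Active group (8025 ± 753 against 7334 ± 444, log2 fold change 0.13, unadjusted p = 0.0467 in edgeR) and had 0.11 against the Inactive group (unadjusted p = 0.0789). Mat1a, the liver form, had the smallest p-value of the list in the Active against the Inactive group (log2 fold change 1.02, standard error 0.702, unadjusted p = 0.162 in edgeR). In the methionine salvage list, Adi1 was -0.10 and Mtap -0.14 in the Activity Reduction against the Inactive group (unadjusted p = 0.0354 and unadjusted p = 0.0449 in edgeR). Adi1 was -0.07 in the Active against the Inactive group (unadjusted p = 0.0994) and Enoph1 was 0.12 in the Activity Reduction against the Active group (unadjusted p = 0.0987), the smallest p-values of this list there. All 5 salvage genes had log2 fold changes below 0 in the Active against the Inactive group, from -0.07 to -0.03, where 48.4% of all genes lay below 0.

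The remaining lists held no gene at an unadjusted p-value under 0.05. Among genes of arginine and ornithine the smallest p-values were those of Gatm in the Active against the Inactive group (log2 fold change 0.32, unadjusted p = 0.0535 in edgeR), Aldh18a1 in the Activity Reduction against the Inactive group (0.23, unadjusted p = 0.114) and Oat in the Activity Reduction against the Active group (0.09, unadjusted p = 0.0835). Among the other regulators and genes of back-conversion, Sat2 had -0.22 (unadjusted p = 0.0909) and 0.20 (unadjusted p = 0.134) in the first and last comparison and Azin2 had 0.18 (unadjusted p = 0.241) in the second, from the same test. Among transporters, Atp13a3 had -0.13 (unadjusted p = 0.0643) and -0.12 (unadjusted p = 0.0844) against the Inactive group and Slc7a1 had -0.21 (unadjusted p = 0.209) in the Activity Reduction against the Active group. Arg1, Otc, Agmat, Mat1a and Gnmt, which are mainly expressed in the liver, had wide standard errors, from 0.575 to 0.709.

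**Figure D5:**
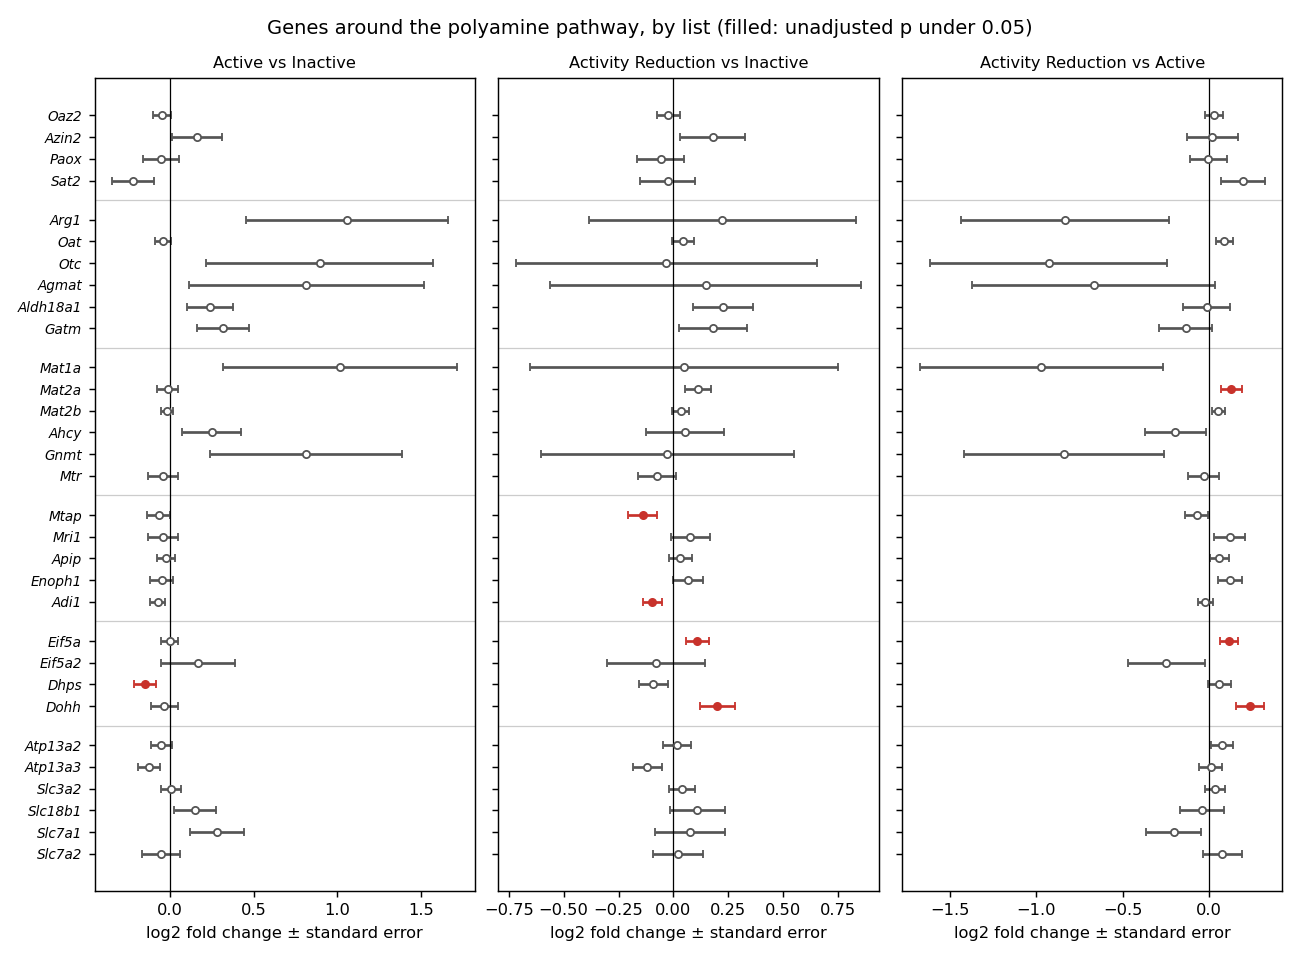
Log2 fold change ± standard error of 31 genes around the polyamine pathway in the 3 comparisons, grouped by list (from top: other regulators and back-conversion, arginine and ornithine, methionine cycle, methionine salvage, hypusine, transport), with filled symbols where the unadjusted p-value was under 0.05. Dohh and Eif5a are filled in both Activity Reduction panels, and the liver genes such as Mat1a have the widest errors.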

How the data were processed

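The authors used fastp for trimming, STAR for alignment of paired reads to GRCm39 and featureCounts for counting, and deposited raw counts per gene and library. The versions, the annotation and the strand setting are not given in the sources used here. A second deposited table held the same 857913 values and was not used. Libraries were grouped by their titles, 7 per group. Counts were tested with edgeR 4.0.16 (quasi-likelihood test, TMM normalization, filterByExpr, 21 libraries in 1 model, R 4.3.3) and adjusted by Benjamini-Hochberg over 16129 genes. Calls needed an adjusted p-value under 0.05 and a log2 fold change over 0.25 in either direction, thresholds of the study read on the log2 scale. DESeq2 1.42.0, which the authors used, was an alternative. Exact permutation tests ran over all 3432 splits of 7 against 7, on counts divided by size factors, and correlations used log2(normalized count + 1) with exact or 100000 permutations. Gene positions, coding sequences and transcripts were taken from GRCm39 and GENCODE release 39 for the mouse, with BLAST+ 2.17.0 for copies. The edgeR script was tested on simulated data. Counting precision is limited by 38482455 to 59785132 counts per library. The members and lists were chosen with earlier results of these data known. All 9 members were named. From each wider list the gene with the smallest p-value of each comparison and any under 0.05 were named, and for likeness the 3 genes with the highest r. Cell type markers and pairs of genes were named after their values were seen. The liver division is the split of the libraries with the smallest sum of squares in the mean log2(CPM + 1) of 24 liver genes, and it was known from earlier results. Alternatives were RLE size factors, DESeq2 on 3 or on 2 groups, edgeR on 2 groups, no filter, the liver division as a covariate, libraries with fewer liver transcripts, a replicate block, and Amd1 and Amd2 summed.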

Additional observations from a re-analysis of the deposited data

Results flagged for a closer look

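In 138 groups of 7 values (the 9 polyamine genes, the tested genes of the wider lists and 6 ratios between polyamine genes, in each group), 9 held a library far from the others by Dixon's criterion, where chance flags about 1 in 20 groups, and none of these were among the 27 groups of the 9 polyamine genes. In the Inactive group, replicate 1, the only Inactive library with more liver transcripts, stood apart with a normalized count of 926 for Arg1, 277 for Otc, 185 for Agmat, 3282 for Mat1a, 3676 for Ahcy and 1874 for Gnmt. Replicate 7 of the Inactive group stood apart with 456 for Mri1, a gene of methionine salvage, and with 109 for Eif5a2, the second eIF5A gene. Replicate 2 of the Activity Reduction group, which has more liver transcripts, stood apart with 823 for Mri1.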

How the results depend on the processing

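Of the log2 fold changes of the 9 genes over 3 comparisons under the alternatives, 229 of 246 kept their direction and their side of the threshold, 1 became a call and 16 changed sign. The call was Smox in the Activity Reduction against the Active group with DESeq2 on the 2 groups compared (0.32). None of the 9 genes was called in the model of all libraries, so keeping the side of the threshold meant only staying uncalled. The alternatives also used the same libraries or a part of them, so they are not independent of each other. Those that changed sign had been at most 0.14 in size, for Amd2, and none had an unadjusted p-value under 0.05 before or after. For Sms in the Activity Reduction against the Inactive group, the value of 0.00 became -0.00387 with RLE size factors, -0.00416 and -0.00524 with DESeq2 on 3 and on 2 groups, -0.00664 with edgeR on 2 groups, -0.00799 without a filter, -0.000263 with the liver covariate, -0.0341 in the libraries with fewer liver transcripts and -0.00243 with the replicate block, and Azin1, at -0.00 there, became 0.000994 with the replicate block. In the libraries with fewer liver transcripts Smox became -0.0358 in the same comparison, Amd2 became -0.00308 in the Activity Reduction against the Active group, and Odc1 and Sat1 became -0.0634 and -0.0108 in the Active against the Inactive group. With the liver covariate Odc1 became -0.0170 and Azin1 -0.0286 there, and Azin1 was -0.0280 also in the model of 2 groups with that covariate, an alternative chosen after seeing the data.

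The number of genes called moved most with the tool. In the Active against the Inactive group it was 0 in edgeR (1754 at an unadjusted p-value under 0.05), 58 and 74 with DESeq2 on 3 and on 2 groups and 3 with edgeR on 2 groups. In the Activity Reduction against the Inactive group it was 2, against 22 and 44 with DESeq2, 1 with the liver covariate, and 0 with RLE size factors, edgeR on 2 groups (with or without that covariate) or the libraries with fewer liver transcripts. In the Activity Reduction against the Active group it was 0 (2149 at an unadjusted p-value under 0.05), 118 and 135 with DESeq2 and 1 with RLE size factors. Members at an unadjusted p-value under 0.05 in the Active against the Inactive group were 1, against 2 with DESeq2 on 3 groups, DESeq2 on 2 groups or edgeR on 2 groups, 3 without a filter or in the libraries with fewer liver transcripts, and 0 in the model of 2 groups with the liver covariate. That model gave 2 in the Activity Reduction against the Inactive group, against 1. In the model of all libraries, 10.9% and 7.73% of all genes had such a p-value in these comparisons. The shares of all genes under the alternatives are not given here, so these counts are not read as a result about the members. Only Odc1 had such a p-value in all of these fits, in both comparisons of the Activity Reduction group. Its exact permutation p-value against the Active group became 0.120 on counts scaled to the library total.

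Replicate numbers did not pair the libraries. The correlation of same-numbered libraries, after group means were removed, ran from -0.234 to 0.439, was over 0.1 in 7 of 21 pairs, and 3 of 21 libraries correlated best with their own number. The replicate block gave 4 calls in place of 2 in the Activity Reduction against the Inactive group. Leaving out a library that stood apart in a member gave no value, since none did. Depth limits Amd2, with 72 to 222 counts per library, most.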
